A study of Rattus norvegicus with 4 samples.

Results

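Cells take up glucose, lactate and amino acids through membrane carriers of the solute carrier (Slc) superfamily. All genes of 9 Slc families that carry these nutrients were described here: Slc2a (glucose and related sugars), Slc16a (lactate, pyruvate and other monocarboxylates), and Slc1a, Slc3a, Slc6a, Slc7a, Slc36a, Slc38a and Slc43a (amino acids and related molecules). They were chosen by gene symbol alone, and 82 of the 30560 genes in the table matched. The data were 4 single-cell libraries of wild-type (WT) rats, skin replicates 1 and 2 and subcutaneous fascia replicates 1 and 2, the fascia being the loose connective tissue layer under the skin. The series title places the fascia at the abdominal midline, and the labels give no strain, age or sex. Both tissues were minced and digested with collagenase, elastase and DNase, and dead cells were removed. The study compared the cells that make up skin and fascia. The labels do not say that the libraries came from separate animals, so p-values measure only the spread between libraries, which may be technical.

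Glucose crosses the membrane down its gradient through the Slc2a carriers, also called GLUTs. Slc2a1 is the common basal form, Slc2a3 a high-affinity form, and Slc2a4 the form that insulin moves to the surface of muscle and fat cells. Several Slc16a carriers, Slc16a1, Slc16a3 and Slc16a7 among them, move lactate and pyruvate together with protons, and some need the partner protein basigin. Other Slc16a members carry different molecules, such as Slc16a10, which carries aromatic amino acids. Large neutral amino acids such as leucine enter through Slc7a5, which works as a pair with the heavy chain Slc3a2, and the same heavy chain carries the light chains Slc7a6, Slc7a7, Slc7a8 and Slc7a11. Slc7a1 and Slc7a2 carry arginine and lysine without a heavy chain. Glutamine and small neutral amino acids enter through Slc1a5, Slc38a1 and Slc38a2, glutamate and aspartate through Slc1a1 to Slc1a3, and taurine through Slc6a6. Several of these genes are known targets of the transcription factor Atf4, which is made when amino acids run short or the endoplasmic reticulum is stressed.

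The sequences before the start sites of 4 members are shown because 3 of the 4 (Slc7a1, Slc7a5 and Slc2a1) were lower in fascia in 4 cell classes each, and because Slc1a4 holds matches to each motif searched. They are the 250 bases before the start in RefSeq, build GRCr8, written 5′ to 3′ on the strand of the gene. Capitals mark matches, on either strand, to TGATGNAA (the site of C/EBP with ATF factors, Atf4 among them), CACGTG (an E-box) and ACGTG (the core of the hypoxia response element, which lies within every E-box of that form).
Slc7a1, chr12:11664238-11664487, plus strand: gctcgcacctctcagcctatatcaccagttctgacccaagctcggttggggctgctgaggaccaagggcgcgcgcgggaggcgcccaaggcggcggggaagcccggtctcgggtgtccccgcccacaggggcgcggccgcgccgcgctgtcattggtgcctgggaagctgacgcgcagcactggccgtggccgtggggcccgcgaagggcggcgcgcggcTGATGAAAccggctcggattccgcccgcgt
Slc7a5, chr19:66872413-66872662, minus strand: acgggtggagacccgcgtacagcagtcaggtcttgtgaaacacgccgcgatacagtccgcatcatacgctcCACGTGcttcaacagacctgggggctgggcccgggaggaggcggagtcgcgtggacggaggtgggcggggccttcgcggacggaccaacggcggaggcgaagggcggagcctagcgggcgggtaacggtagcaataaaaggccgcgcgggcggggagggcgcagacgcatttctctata
Slc2a1, chr5:138002272-138002521, plus strand: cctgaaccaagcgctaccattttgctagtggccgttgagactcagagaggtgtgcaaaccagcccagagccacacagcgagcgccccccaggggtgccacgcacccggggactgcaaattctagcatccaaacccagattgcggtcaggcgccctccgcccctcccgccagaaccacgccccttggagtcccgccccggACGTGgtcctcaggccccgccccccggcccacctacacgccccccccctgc
Slc1a4, chr14:98761563-98761812, minus strand: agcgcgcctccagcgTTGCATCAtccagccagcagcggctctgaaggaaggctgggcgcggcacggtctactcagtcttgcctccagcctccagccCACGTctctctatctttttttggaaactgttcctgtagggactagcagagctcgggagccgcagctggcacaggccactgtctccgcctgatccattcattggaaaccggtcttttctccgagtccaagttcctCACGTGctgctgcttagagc
The match in Slc7a1 begins at position -30 from the start and is the only one there. The Slc7a5 window holds an E-box at position -179, and the Slc2a1 window an ACGTG at position -51. In Slc1a4 the TGATGNAA match is on the opposite strand at position -235, the E-box is at position -20, and a further ACGTG is on the opposite strand at position -154. TGATGNAA occurs in 3.4% of 33469 promoters of this length and in 3 of the 60 members with an entry (5.0%). CACGTG occurs in 5.6% of promoters and in 8 of 60 members (13.3%), and ACGTG in 16.6% and in 16 of 60 (26.7%). A match describes letters and is not a measured binding site.

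After filtering, 7015 and 14279 cells of skin and 6602 and 6820 of fascia were kept. Skin replicate 2 stood apart, with a median of 2457 UMIs (distinct RNA molecules) per cell, against 8859 in skin replicate 1 and 12680 and 10330 in fascia, and 41.8% of its cells had under 2000 UMIs. Pairs of libraries shared 17 to 45 cell barcodes. Clusters were named from marker genes, and within them cells with at least 2 detected markers of the class were kept. The 82 members took no part in the clustering. This left 6 classes in both tissues: fibroblast-like cells (324 and 424 in skin, 2770 and 742 in fascia), blood endothelial-like cells (147 and 433, 608 and 1035), mural-like cells of vessel walls (77 and 281, 1264 and 1978), macrophage- or monocyte-like cells (45 and 26, 1368 and 1252), dendritic-like cells (184 and 79, 193 and 613) and T- or NK-like lymphocytes (79 and 155, 259 and 612). Keratinocyte-like cells (4055 and 4270) and lymphatic endothelial-like cells (24 and 62) were described in skin alone. The last are a minority of the 92 and 551 cells of their cluster, whose leading genes hold the lymphatic Ccl21, Reln and Mmrn1 and also Nos3, Podxl and Gpihbp1, known from blood vessel endothelium. The names below leave out "-like".

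A class was not made of the same clusters in both tissues, with shares given over the cells of its clusters before the marker minimum was applied. Skin fibroblasts lay mostly in a cluster led by Igfbp2 and Col1a1 (97.2% and 36.3%) and, in skin replicate 2, in a cluster led by Stmn2 and Myoc (63.4%), whereas fascia fibroblasts lay mostly in a cluster led by Mrgprg and Pi16 (66.0% and 57.3%). Skin blood endothelial cells were mostly of a cluster led by Csf3, Selp and Sele (82.3% and 95.4%), and fascia cells of clusters led by Gpihbp1 (67.0% and 54.2%) and by Cytl1 and Ackr1 (33.0% and 45.8%). Skin dendritic cells were mostly of a cluster led by Cd207 (68.8% and 94.8%) and those of fascia wholly of a cluster led by Ccl17. In fascia dendritic cells the highest median of another class's markers was 39 and 35 UMIs per cell, against 26 and 22 of dendritic markers. In skin it was 6.5 and 24, against 47.5 and 17. The name dendritic is therefore less certain in fascia and in skin replicate 2. The marker minimum kept 184 of 234 and 79 of 386 dendritic cells in skin. In skin replicate 2, 44 of the 79 were just inside it and 206 cells just outside, and a minimum of 3 markers kept 35. Mural cells of both tissues shared a cluster led by Myh11 (75.3% and 86.1% in skin, 31.7% and 38.1% in fascia), and macrophages shared one led by C1qa (97.8% and 96.2%, 66.8% and 72.4%), so levels within those clusters are given as well. T or NK lymphocytes of skin lay in clusters led by Ccl5 (34.5% and 43%) and by Trat1 (50.6% and 39.7%), and those of fascia mostly in the former (73.5% and 77.5%). Tissue changes below, those of dendritic cells and lymphocytes among them, therefore also compare different mixes of clusters. The part of these mixes was not tested.

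Keratinocyte markers were detected in the other skin classes. The summed level of keratinocyte markers was 1.1% and 3.86% of that in keratinocytes in fibroblasts of skin replicates 1 and 2, 2.97% and 15.01% for blood endothelial cells, 2.42% and 0.98% for mural cells, 2.17% and 3.9% for macrophages, 5.98% and 17.37% for lymphocytes, and 3.98% and 41.39% for dendritic cells. In fascia it was 11.9 to 41.7 CPM, the unit used for all levels here (a gene's UMIs over all UMIs of the class in that library, times 1000000), and 1 to 8 markers were at 0. In skin replicate 2 the sum exceeded that of the class's own markers in blood endothelial cells (7096.6 against 6547.0 CPM, median 22 against 11 UMIs per cell). It did so too in dendritic cells (19564.4 against 3528.3 CPM, 24 against 17) and lymphocytes (8208.8 against 4323.6 CPM, but 2 against 13). In skin replicate 1 the sum was lower than that of own markers in these classes. Immediate early and heat shock genes, of which 9 were measured, were summed as well. Their summed level in fibroblasts was 11450 and 20426 CPM in skin against 2709 and 5287 in fascia, and in blood endothelial cells 10387 and 15895 against 9259 and 4299. In mural cells it was 16655 and 22702 against 14472 and 7418, and in macrophages 6558 and 20936 against 3042 and 3898. It was 5863 and 12219 against 5110 and 4033 for dendritic cells, and 5200 and 11866 against 5822 and 4320 for lymphocytes, where the tissues overlap. The part of these genes in the results below was not tested.

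Of the 82 members, 81 had at least 1 UMI in the kept cells (Slc7a13 had none), 18 had 1 to 99 UMIs, and 55 reached 10 CPM on average in at least 1 class of a tissue. Levels of different genes are compared in CPM without a scaling by gene length, because 3′ libraries tag 1 end of a transcript. Whether intronic reads were counted is not given in the sources used here, and with them a count can grow with gene length, which limits the ranks between genes. The most abundant members were broad: Slc38a2 led its family in 11 of the 14 combinations of class and tissue, and Slc3a2 led the small Slc3a family in all 14, with at least 94.5% of its CPM in every library. Other families were led by different members in different cells, as the map of levels shows. With replicate 1 alone 6 of the 106 leads were another gene, and with replicate 2 alone 14.

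**Figure D1:**
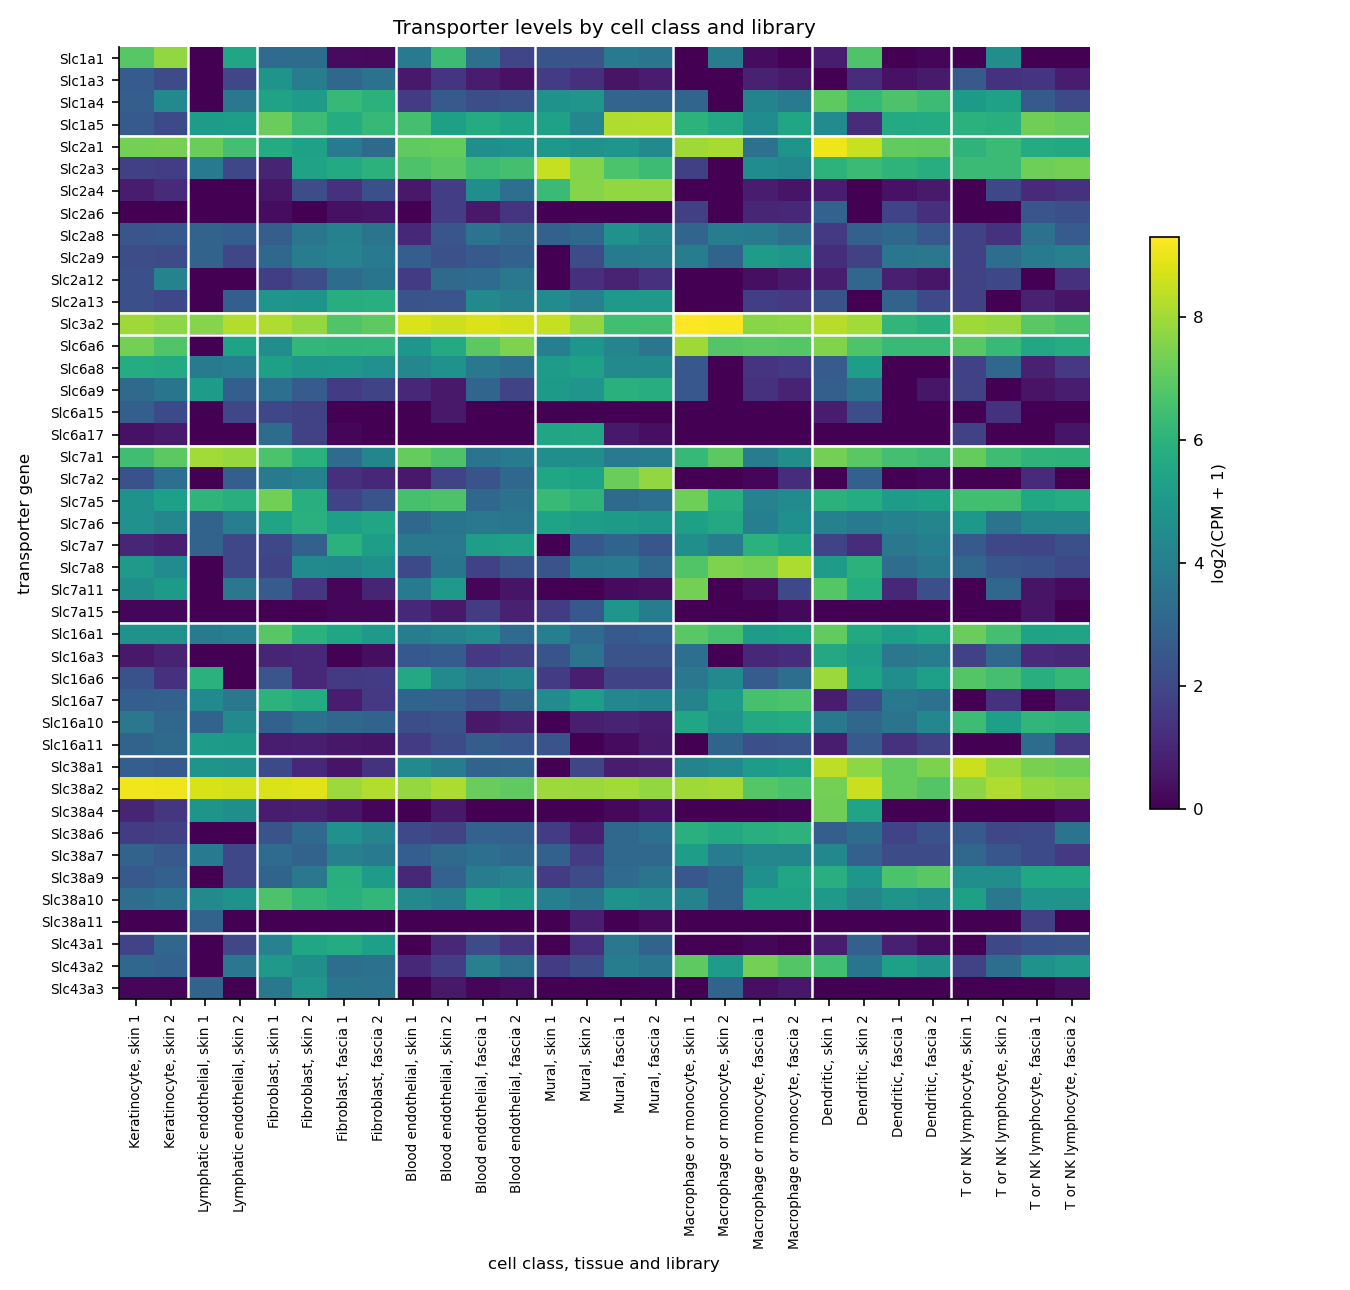
Levels of members with at least 20 CPM on average in a class of a tissue (rows, ordered by family and separated by white lines), as log2(CPM + 1) in each class and library (columns). Slc38a2 and Slc3a2 are bright in most columns, Slc2a4 and Slc7a2 are brightest in mural cells, and Slc38a1 in dendritic cells and lymphocytes.

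Within each class, summed counts of fascia were compared with those of skin with edgeR's quasi-likelihood test, and a gene was called at a Benjamini-Hochberg adjusted p under 0.05 over all genes tested. In fibroblasts, 11 of 46 members tested were lower in fascia (6.91% of all genes were called lower) and 2 were higher (3.01% of all genes). In blood endothelial cells, 12 of 39 were lower (13.6% of all genes) and 5 higher (8.41%). In mural cells, 9 of 41 were lower (9.98%) and 2 higher (5.86%), and in macrophages 7 of 35 were lower (5.45%) and 1 was higher (2.45%). In dendritic cells, 8 of 31 were lower (9.89%) and 3 higher (8.25%), and in lymphocytes 5 of 19 were lower (10.3%) and 3 higher (6.42%). Members passing the filter on low counts may have passed through the tissue where they were high, and 27 members were tested in no class. The median log2 change of the tested members was -1.02 for fibroblasts, -0.36 for blood endothelial cells, -0.31 for mural cells, 0.08 for macrophages, -0.60 for dendritic cells and -0.63 for lymphocytes, beside 0.04, 0.07, 0.10, 0.20, -0.01 and 0.06 over all genes tested. With members lacking UMIs in a tissue set at a bound of 3 counts, the median in macrophages was -0.30 and the other medians did not move.

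These counts depended on single libraries. Without skin replicate 2, the members called numbered 23 for fibroblasts, 12 for blood endothelial cells, 10 for mural cells, 9 for macrophages, 23 for dendritic cells and 9 for lymphocytes, against 13, 17, 11, 8, 11 and 8 with all libraries. Without fascia replicate 1 or fascia replicate 2, edgeR called 0 members in fibroblasts (15 and 19 at an unadjusted p under 0.05), in macrophages (9 and 10) and in dendritic cells (8 and 6), and 0 to 7 genes of the whole table, so every call named below in those 3 classes was lost without either fascia library. It called 6 and 5 for blood endothelial cells, 7 and 8 for mural cells and 1 and 1 for lymphocytes. Without skin replicate 1, it called 9, 10, 14, 4, 15 and 9 in the same order of classes as above. DESeq2 called 21 members in fibroblasts, 17 for blood endothelial cells, 11 for mural cells, 8 for macrophages, 13 for dendritic cells and 5 for lymphocytes. Without scaling factors the median of all genes rose to 0.40 for fibroblasts, 0.55 for blood endothelial cells, 0.52 for mural cells and 0.49 for macrophages, and the split into lower and higher members became 9 and 6 for blood endothelial cells, 7 and 11 for mural cells and 3 and 3 for lymphocytes. The background split became 846 lower and 2612 higher genes in blood endothelial cells and 807 and 2526 for mural cells, from 1630 and 1011 and from 1253 and 736, and 625 and 557 for fibroblasts, from 858 and 373. In macrophages it became 494 lower and 603 higher, from 628 and 282. Changes are therefore given relative to the bulk of genes, as edgeR's scaling sets it.

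**Figure D2:**
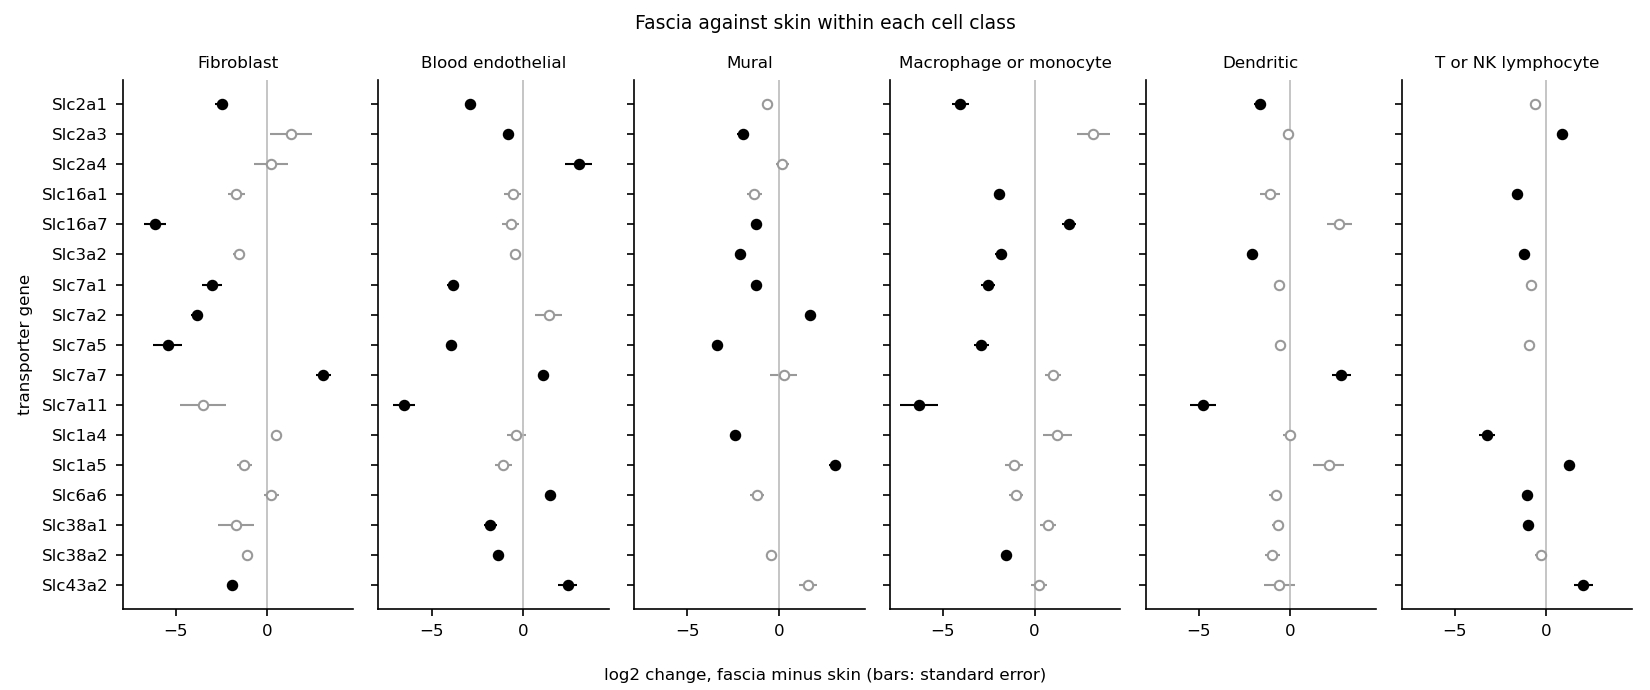
Log2 change of 17 members, fascia minus skin, in each class with its standard error. Filled points passed the threshold and open points did not. Slc2a1, Slc7a1, Slc7a5 and Slc3a2 lie below 0 in all 6 classes with edgeR's scaling, whereas Slc1a5, Slc7a2 and Slc43a2 lie on different sides in different classes. Without scaling factors Slc3a2 lies above 0 for blood endothelial cells.

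In several classes glucose transporters differed between tissues in their leading member. Slc2a1 led the Slc2a family in 6 of 8 skin classes but in fascia only in dendritic cells. Keratinocytes and lymphatic endothelial cells, both led by Slc2a1, were described in skin alone. Slc2a3 led in fascia blood endothelial cells, fibroblasts and lymphocytes and in skin mural cells and lymphocytes, and Slc2a4 led in fascia mural cells. Leads rest on the mean of both libraries. In fibroblasts, skin replicate 2 held more Slc2a3 (39.6 CPM) than Slc2a1 (38.9) and fascia replicate 1 more Slc2a13 (53.9) than Slc2a3 (50.3). In mural cells of skin replicate 2, Slc2a4 (192.5 CPM) lay just above Slc2a3 (191.8). Slc2a1 was at 130 and 135 CPM in skin blood endothelial cells and at 24.0 and 26.6 in fascia. It fell by 2.88 on the log2 scale (SE 0.20, adjusted p = 0.00231), and the call held with each library left out. The keratinocyte level of Slc2a1 (163 and 169 CPM) times the share of keratinocyte markers in these cells gives 4.84 and 25.4 CPM. In macrophages Slc2a1 was at 250 and 269 CPM in skin against 10.5 and 26.9 in fascia, a log2 shift of -4.05 (SE 0.45, adjusted p = 0.000818), or -4.91 without fascia replicate 2. Within the shared C1qa cluster it was at 254 and 261 CPM in skin against 2.00 and 5.99 in fascia. The other fascia macrophage cluster, led by Fcrl2 and Lyz2, held 26.5 and 69.2 CPM of Slc2a1.

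Fibroblasts held less Slc2a1, 51.5 and 38.9 CPM in skin against 12.9 and 8.24 in fascia, a log2 shift of -2.49 (SE 0.36, adjusted p = 0.029). Within the cluster led by Stmn2 and Myoc it was at 26.5 CPM in skin replicate 2 and 6.99 and 5.47 in fascia. Dendritic cells had the highest Slc2a1 of the classes found in both tissues, 535 and 367 CPM in skin against 132 and 130 in fascia (log2 change -1.67, SE 0.31, adjusted p = 0.028), where the keratinocyte product is 6.49 and 69.9 CPM. In mural cells (30.3 and 26.0, 27.5 and 20.2 CPM) and lymphocytes (65.8 and 80.3, 51.5 and 49.7 CPM) Slc2a1 did not pass the test (adjusted p = 0.184 and 0.156), although in lymphocytes the tissues did not overlap.

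Slc2a3 showed no common direction. In mural cells Slc2a3 was at 353 and 192 CPM in skin against 102 and 81.1 in fascia, a log2 shift of -1.96 (SE 0.31, adjusted p = 0.00529) that was called with each library left out. In lymphocytes it was at 80.9 and 80.3 CPM in skin against 152 and 164 in fascia, a log2 shift of 0.89 (SE 0.24, adjusted p = 0.044), and the call was lost without either fascia library (0.99 and 0.88). Blood endothelial cells held 103 and 120 against 82.5 and 93.1 CPM, a log2 shift of -0.83 (SE 0.18, adjusted p = 0.0262), lost without either fascia library or skin replicate 1 (-0.68, -0.95 and -0.77). Slc2a3 in fibroblasts differed between the skin libraries, with 0.927 CPM in skin replicate 1, 39.6 in skin replicate 2, and 50.3 and 62.0 in fascia (adjusted p = 0.487).

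Slc2a4, the insulin-responsive form, was a mural transcript. It was at 80.1 and 192 CPM in skin mural cells and 222 and 221 in fascia, where it made up 52.5% and 56.7% of the Slc2a total, and the tissues did not differ by the test (adjusted p = 0.732). In the joint fit of all classes, it was higher in mural cells than in the mean of the other classes by 8.74 (SE 0.50, adjusted p = 1.44e-09) in skin and 6.75 (SE 0.27, adjusted p = 1.33e-11) in fascia on the log2 scale. Blood endothelial cells held 0.537 and 2.23 CPM of Slc2a4 in skin and 22.9 and 9.42 in fascia, a log2 shift of 3.04 (SE 0.74, adjusted p = 0.034). That call was lost without skin replicate 1 (2.50), skin replicate 2 (4.20) or fascia replicate 1 (2.37). Within fascia it lay in the cluster led by Gpihbp1, a capillary gene, at 31.4 and 19.1 CPM, against 0 and 1.26 in the cluster led by Cytl1 and Ackr1.

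Of the other sugar carriers, Slc2a13, a proton-coupled inositol carrier, was higher in fibroblasts than in the mean of the other classes in the joint fit. The log2 difference was 4.33 (SE 0.40, adjusted p = 1.57e-07) in skin and 3.48 (SE 0.22, adjusted p = 5.13e-10) in fascia. Slc2a13 was at 53.9 and 55.4 CPM in fascia fibroblasts. It was higher in fascia than in skin blood endothelial cells, at 20.5 and 16.1 against 4.30 and 4.46 CPM (log2 1.56, SE 0.34, adjusted p = 0.0235). The call was lost without skin replicate 2 (1.43) or either fascia library (1.45 and 1.70). Slc2a9, a urate carrier, led the family in fascia macrophages at 33.7 and 29.6 CPM. In dendritic cells Slc2a9 was at 1.33 and 2.50 CPM in skin against 11.6 and 11.9 in fascia (log2 2.82, SE 0.51, adjusted p = 0.0269).

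**Figure D3:**
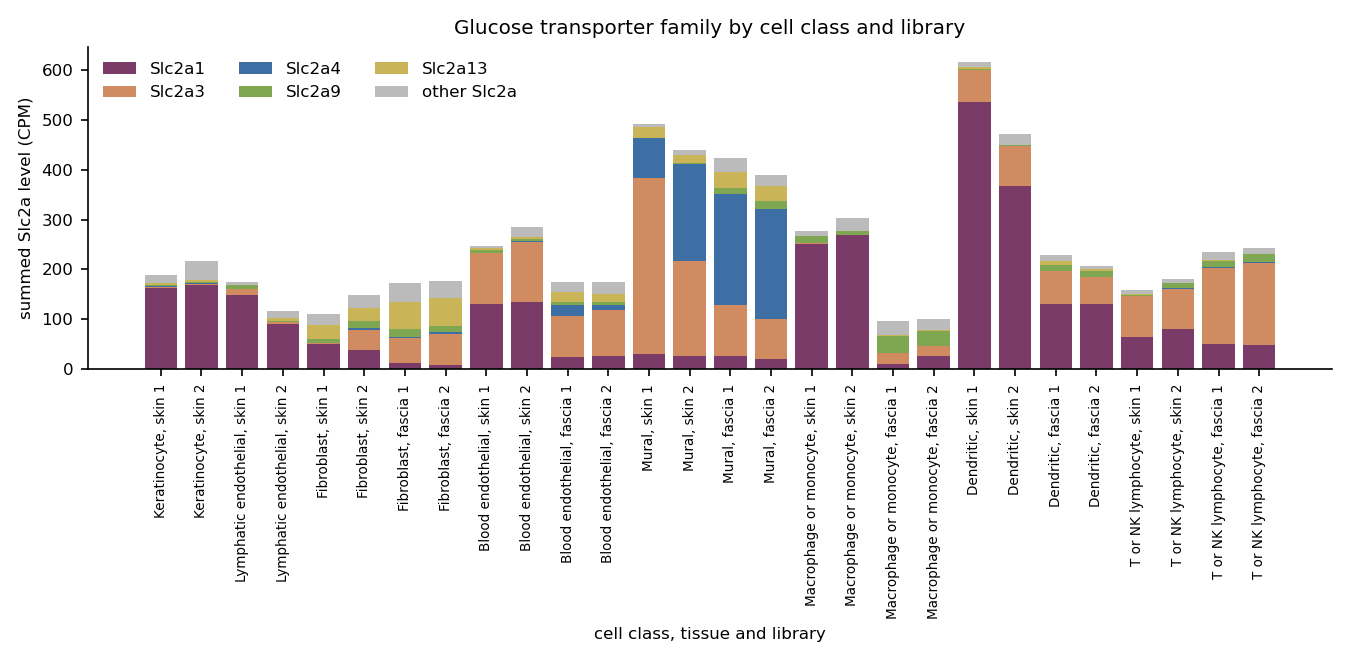
Summed level of the Slc2a family in CPM by class and library, split into 5 members and the rest. Slc2a1 fills most of the bar in keratinocytes and in skin macrophages and dendritic cells, Slc2a4 appears mainly in mural cells, and the bars of fascia macrophages are the lowest.

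Among the monocarboxylate carriers, Slc16a1, which carries lactate and pyruvate, and Slc16a7, a high-affinity pyruvate carrier, led in different cells. Slc16a1 was at 119 and 96.7 CPM in skin macrophages and 33.9 and 38.1 in fascia, a log2 shift of -1.91 (SE 0.29, adjusted p = 0.00372). In lymphocytes Slc16a1 was at 144 and 94.2 CPM in skin against 40.7 and 41.7 in fascia (log2 -1.58, SE 0.28, adjusted p = 0.00944). The lymphocyte call was lost without either fascia library (-1.52 and -1.57), and the macrophage call also without skin replicate 1 (-1.52). In fibroblasts Slc16a1 was at 116 and 60.1 CPM in skin against 43.2 and 30.7 in fascia, and did not pass (adjusted p = 0.09). Slc16a1 lay below 0 in all 6 classes under each scaling tried.

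Slc16a7 moved in opposite directions. In skin fibroblasts it was at 64.0 and 52.3 CPM and in fascia at 0.633 and 1.89, a log2 shift of -6.13 (SE 0.62, adjusted p = 0.0199), with -5.30 without fascia replicate 1 and -6.92 without fascia replicate 2. In macrophages it was at 16.7 and 34.5 CPM in skin against 95.6 and 101 in fascia, a log2 shift of 1.88 (SE 0.39, adjusted p = 0.0163), lost also without skin replicate 1 (1.41). In mural cells it was at 21.6 and 36.5 against 18.9 and 16.9 CPM (log2 -1.26, SE 0.28, adjusted p = 0.0198), and that call was lost without either fascia library (-1.28 and -1.11) or skin replicate 2 (-0.61). Within clusters the picture of Slc16a7 was narrower. The skin fibroblast cluster led by Igfbp2 held 65.5 and 117 CPM, while the cluster led by Stmn2 and Myoc held 4.94 in skin replicate 2 and 2.99 and 5.75 in fascia, so the tissues overlapped there. In the Myh11 mural cluster the tissues overlapped too, at 24.5 and 39.2 against 32.0 and 36.6 CPM. In the C1qa macrophage cluster Slc16a7 was at 17.3 and 37.3 CPM in skin against 122 and 135 in fascia.

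Slc16a3, the carrier linked to lactate export, was in dendritic cells at 48.1 and 36.2 CPM in skin against 11.9 and 14.3 in fascia (log2 -1.56, SE 0.33, adjusted p = 0.0374). On average Slc16a6 led in blood endothelial cells, although Slc16a1 (21.3 CPM) lay above it in fascia replicate 1. Slc16a6 was at 47.8 and 20.6 CPM in skin against 13.9 and 17.5 in fascia (log2 -1.66, SE 0.47, adjusted p = 0.0493). That call was lost without skin replicate 1 (-0.70) or either fascia library (-1.45 and -1.87), and without skin replicate 2 the change was -2.24. Slc16a10, an aromatic amino acid carrier, led in fascia lymphocytes at 69.2 and 61.4 CPM, beside 55.6 and 71.7 of Slc16a6.

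The leucine carrier Slc7a5 was lower in fascia in 4 classes. Blood endothelial cells held 94.6 and 102 CPM in skin against 7.89 and 10.3 in fascia, a log2 shift of -3.91 (SE 0.23, adjusted p = 0.00184). In mural cells it was at 77.9 and 65.3 CPM against 8.33 and 9.60, a log2 shift of -3.38 (SE 0.21, adjusted p = 0.000145). Both of these calls held with each library left out. Slc7a5 in fibroblasts was at 159 and 56.2 CPM in skin against 2.63 and 4.38 in fascia (log2 -5.45, SE 0.78, adjusted p = 0.0287), and in macrophages at 150 and 55.3 against 16.3 and 21.7 (log2 -2.92, SE 0.41, adjusted p = 0.00246). The macrophage call was also lost without skin replicate 1 (-1.64), and the fibroblast change was -4.25 without skin replicate 1 and -6.14 without skin replicate 2. In each of these classes both skin libraries lay above both fascia libraries, and the same held within the Myh11 mural cluster (92.6 and 71.8 against 8.94 and 9.30 CPM) and the C1qa macrophage cluster (153 and 52.2 against 13.3 and 20.3). The Stmn2 fibroblast cluster gives a value for skin replicate 2 alone, 33.3 CPM against 5.74 and 7.11 in fascia. Dendritic cells (61.4 and 52.4 against 33.2 and 38.3 CPM) and lymphocytes (88.5 and 88.0 against 45.9 and 53.1 CPM) did not pass for Slc7a5 (adjusted p = 0.218 and 0.0507).

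Its heavy chain Slc3a2 was lower in fascia in mural cells, macrophages, dendritic cells and lymphocytes. Slc3a2 was at 355 and 223 CPM in skin mural cells and 88.4 and 88.3 in fascia, a log2 shift of -2.10 (SE 0.26, adjusted p = 0.00188) called with each library left out. In macrophages Slc3a2 was at 629 and 587 against 198 and 210 CPM (log2 -1.84, SE 0.30, adjusted p = 0.00566). In dendritic cells it was at 317 and 260 against 68.0 and 56.1 CPM (log2 -2.11, SE 0.27, adjusted p = 0.015), where the keratinocyte product is 10.0 and 86.5 CPM. In lymphocytes it was at 253 and 225 against 120 and 98.6 CPM (log2 -1.20, SE 0.24, adjusted p = 0.0166), lost without either fascia library (-1.30 and -1.03). Blood endothelial cells kept a high level of Slc3a2 in both tissues, 436 and 380 CPM in skin against 452 and 407 in fascia (adjusted p = 0.241). Within fascia they held more Slc3a2 than the mean of the other classes (log2 1.80, SE 0.17, adjusted p = 9.9e-08).

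Slc7a1, the main carrier of arginine and lysine, was lower in fascia in the same 4 classes as Slc7a5. It was at 135 and 102 CPM in skin blood endothelial cells and 10.9 and 12.8 in fascia, a log2 shift of -3.83 (SE 0.30, adjusted p = 0.0024) called with each library left out. In fibroblasts Slc7a1 was at 101 and 59.7 against 8.59 and 18.4 CPM (log2 -3.01, SE 0.56, adjusted p = 0.0434), lost also without skin replicate 1 (-2.36), and the change was -3.67 without fascia replicate 2. In macrophages it was at 73.9 and 124 against 14.0 and 23.2 CPM (log2 -2.56, SE 0.39, adjusted p = 0.00371). The change in mural cells was smaller, from 23.8 and 23.9 to 13.1 and 14.4 CPM (log2 -1.22, SE 0.26, adjusted p = 0.0184), and was lost without skin replicate 2 (-1.12) or either fascia library (-1.16 and -1.28). Lymphatic endothelial cells of skin held the most Slc7a1, 256 and 233 CPM. That was more than the mean of the other skin classes by 1.28 on the log2 scale (SE 0.28, adjusted p = 0.00588). In these cells keratinocyte markers stood at 1.18% and 20.35% of their keratinocyte level, and the Slc7a1 level was higher than in keratinocytes (87.1 and 123 CPM).

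Slc7a2, the second arginine carrier, marked mural cells. It was at 43.3 and 40.8 CPM in skin mural cells and 145 and 220 in fascia, a log2 shift of 1.71 (SE 0.28, adjusted p = 0.00638) called with each library left out. Within the Myh11 cluster Slc7a2 was at 54.5 and 42.5 CPM in skin against 138 and 157 in fascia. In fibroblasts it went the other way, 13.2 and 15.9 CPM in skin against 1.46 and 1.03 in fascia (log2 -3.86, SE 0.29, adjusted p = 0.0161), but in the Stmn2 cluster at 5.55 in skin replicate 2 and 3.74 and 1.64 in fascia. Compared with the mean of the other classes, mural cells held more Slc7a2 by 5.64 (SE 0.85, adjusted p = 9.4e-05) in skin and 7.72 (SE 0.38, adjusted p = 8.83e-11) in fascia on the log2 scale.

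**Figure D4:**
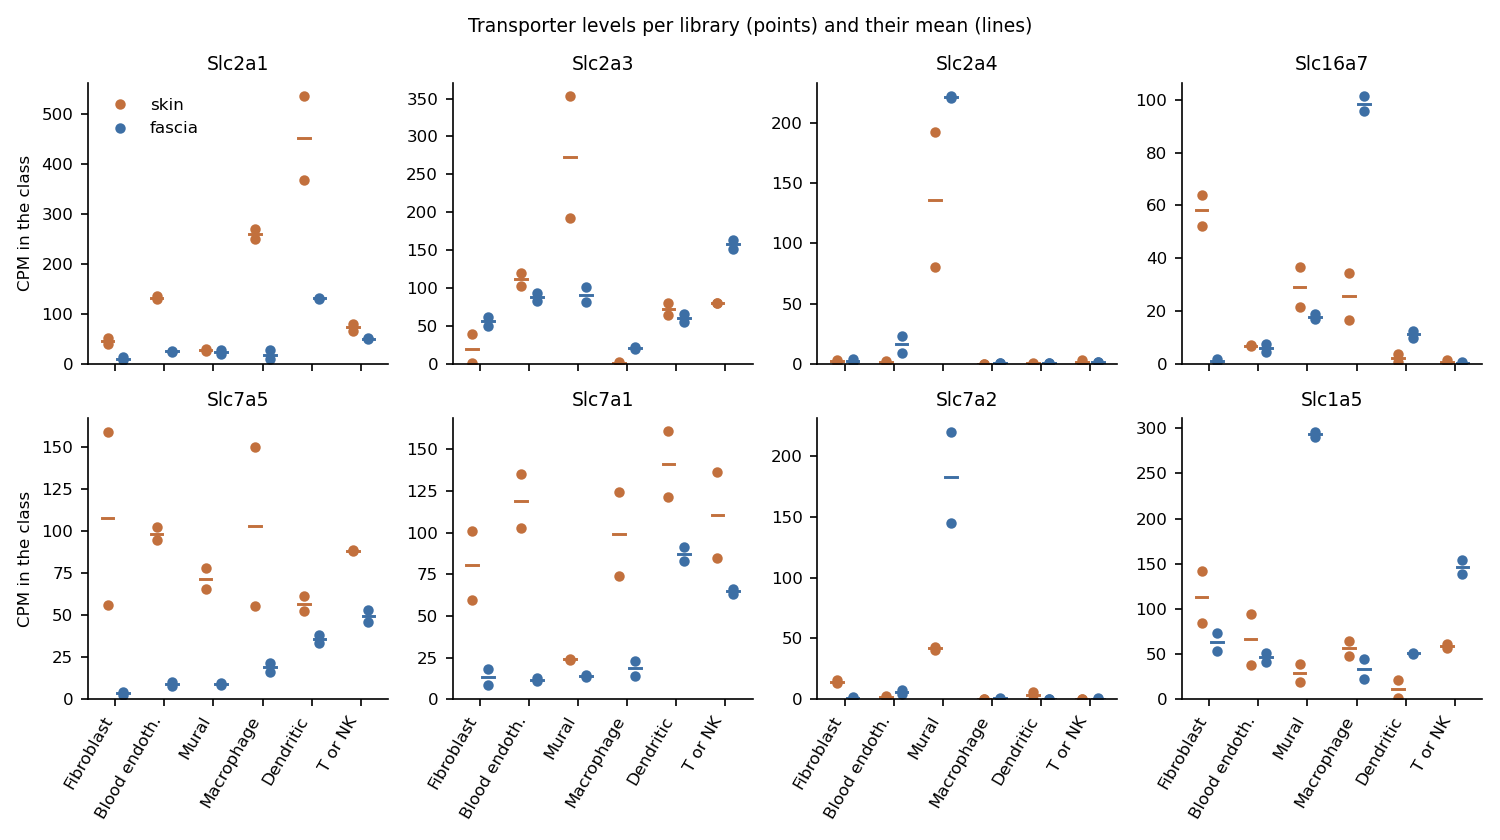
CPM of 8 members in each library of the 6 classes found in both tissues (points) with the mean of each tissue (lines). Slc7a5 and Slc7a1 are higher in both skin libraries than in both fascia libraries in each class, Slc2a4 and Slc7a2 reach their highest level in mural cells, and Slc1a5 is highest in fascia mural cells.

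Slc7a7, a light chain that exchanges basic for neutral amino acids, was called higher in fascia in 3 classes. It was at 3.01 and 6.36 CPM in skin fibroblasts and 61.1 and 35.1 in fascia, a log2 shift of 3.06 (SE 0.41, adjusted p = 0.0264). In blood endothelial cells it was at 12.4 and 12.2 against 35.6 and 39.5 CPM (log2 1.12, SE 0.24, adjusted p = 0.024), lost without skin replicate 2 (0.96) or either fascia library (1.25 and 1.00). In dendritic cells Slc7a7 was at 2.67 and 1.25 against 12.3 and 15.3 CPM (log2 2.79, SE 0.53, adjusted p = 0.0302), with 3.69 without skin replicate 1. Fibroblast clusters differed within fascia: Slc7a7 was at 74.0 and 48.7 CPM in the cluster led by Mrgprg and Pi16 and at 5.86 and 4.92 in the Stmn2 cluster. In skin the Stmn2 cluster gives a value for replicate 2 alone, 3.09 CPM of Slc7a7. The part of the clusters in the tissue difference was not tested.

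The cystine carrier Slc7a11, which supplies cysteine for glutathione, was near 0 in fascia. In blood endothelial cells Slc7a11 was at 13.4 and 31.2 CPM in skin against 0.114 and 0.452 in fascia, a log2 shift of -6.51 (SE 0.61, adjusted p = 0.00301) called with each library left out, and -7.72 without fascia replicate 2. In dendritic cells it was at 113 and 52.4 against 1.12 and 3.77 CPM (log2 -4.78, SE 0.70, adjusted p = 0.0179), with -5.98 without fascia replicate 2 and -3.92 without skin replicate 1. In macrophages the skin libraries disagreed, with 162 CPM in skin replicate 1 and 0 in skin replicate 2, beside 0.247 and 3.19 in fascia. The macrophage call (log2 -6.31, SE 1.01, adjusted p = 0.00508) rested on skin replicate 1, and without it the change was 7.09 in the other direction and not called. Slc7a8, another neutral amino acid light chain, was the leading Slc7a member of macrophages in both tissues, at 110 and 180 CPM in skin against 164 and 288 in fascia (adjusted p = 0.465 between tissues). In skin replicate 1 alone Slc7a11 and Slc7a5 (150 CPM) lay above it. In macrophages Slc7a8 exceeded the mean of the other classes by 3.92 (SE 0.47, adjusted p = 7.52e-06) in skin and 4.94 (SE 0.28, adjusted p = 1.15e-10) in fascia on the log2 scale. In dendritic cells Slc7a8 was at 33.4 and 61.2 CPM in skin against 8.96 and 12.7 in fascia (log2 -1.95, SE 0.42, adjusted p = 0.0385).

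The Slc1a family split between glutamate carriers and carriers of neutral amino acids. Slc1a5, a glutamine carrier, rose in fascia mural cells from 39.0 and 19.0 to 290 and 296 CPM, a log2 shift of 3.09 (SE 0.32, adjusted p = 0.001) called with each library left out. It was higher in fascia within the Myh11 cluster too, at 189 and 180 against 24.5 and 10.8 CPM, and reached 332 and 352 CPM in the fascia mural cluster led by Rgs5. In lymphocytes Slc1a5 was at 60.7 and 57.1 CPM in skin against 154 and 138 in fascia (log2 1.24, SE 0.25, adjusted p = 0.0171), lost without either fascia library (1.2 and 1.35). Fibroblasts (142 and 84.8 against 53.8 and 73.4 CPM), blood endothelial cells (94.0 and 38.4 against 51.5 and 41.1) and macrophages (64.4 and 48.4 against 22.2 and 44.5) did not pass for Slc1a5 (adjusted p = 0.125, 0.134 and 0.182).

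Slc1a4, which carries alanine, serine and cysteine, fell where Slc1a5 rose. In mural cells it was at 26.0 and 28.1 CPM in skin against 7.15 and 6.82 in fascia (log2 -2.40, SE 0.28, adjusted p = 0.00142). In lymphocytes Slc1a4 was at 32.9 and 38.6 against 5.23 and 3.17 CPM (log2 -3.24, SE 0.45, adjusted p = 0.00443). Both calls held with each library left out, and in the Myh11 cluster the values of Slc1a4 were 29.9 and 31.7 against 5.17 and 5.31 CPM. In fibroblasts it was at 40.1 and 34.6 against 73.5 and 62.0 CPM and did not pass (adjusted p = 0.258).

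Slc1a1, a glutamate and aspartate carrier, led the family in keratinocytes, at 117 and 219 CPM. There it lay above the mean of the other skin classes by 3.90 on the log2 scale (SE 0.49, adjusted p = 1.27e-05). In blood endothelial cells Slc1a1 was at 13.4 and 81.3 CPM in skin against 9.72 and 2.86 in fascia (log2 -3.37, SE 0.80, adjusted p = 0.0313). The keratinocyte level times the marker share gives 3.47 and 32.9 CPM there, and without skin replicate 2 (-1.79) or fascia replicate 2 (-2.71) the call was lost. Without fascia replicate 1 or skin replicate 1 the change was -4.37 and -4.08. In fibroblasts it was at 8.58 and 8.84 CPM in skin against 0.211 and 0.172 in fascia (log2 -5.78, SE 0.41, adjusted p = 0.0153), where the same product gives 1.29 and 8.46 CPM. Skin replicate 2 also held 106 CPM of Slc1a1 in dendritic cells and 23.1 for lymphocytes, against 0.668 and 0 in skin replicate 1. The glutamate carrier Slc1a3 was at 27.4 and 14.5 CPM in skin fibroblasts and 7.55 and 10.5 in fascia and did not pass (adjusted p = 0.0925).

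Of the Slc6a family, the taurine carrier Slc6a6 led in 11 of the 13 combinations of class and tissue with a lead. It was at 28.5 and 50.7 CPM in skin blood endothelial cells and 123 and 180 in fascia, a log2 shift of 1.49 (SE 0.29, adjusted p = 0.0184), lost without fascia replicate 2 (1.15) or skin replicate 1 (1.27). Within fascia, Slc6a6 was at 148 and 289 CPM in the cluster led by Gpihbp1 and at 55.2 and 86.0 in that led by Cytl1 and Ackr1. In lymphocytes it went down, from 121 and 77.2 to 46.7 and 53.8 CPM (log2 -1.02, SE 0.28, adjusted p = 0.0464), and the call was lost without skin replicate 1 (-0.74) or either fascia library (-0.89 and -1.10). Mural cells were led by other members: by Slc6a17, a neutral amino acid carrier known from synaptic vesicles, in skin and by the glycine carrier Slc6a9 in fascia. Slc6a17 was at 43.3 and 47.1 CPM in skin mural cells and 0.556 and 0.288 in fascia (log2 -7.21, SE 0.37, adjusted p = 0.000111). That call held with each library left out, and within the Myh11 cluster Slc6a17 was at 51.7 and 55.1 against 1.18 and 0.885 CPM. Slc6a9 was at 59.4 and 54.1 CPM in fascia mural cells. It lay above the mean of the other fascia classes by 5.29 on the log2 scale (SE 0.29, adjusted p = 8.19e-11).

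The creatine carrier Slc6a8 was lower in fascia in mural cells, at 34.6 and 38.6 against 19.6 and 20.6 CPM (log2 -1.32, SE 0.21, adjusted p = 0.00624), lost without either fascia library (-1.28 and -1.33) or skin replicate 2 (-1.12). It was also lower in blood endothelial cells, at 18.8 and 26.7 against 12.7 and 9.87 CPM (log2 -1.50, SE 0.26, adjusted p = 0.0125), lost without either fascia library (-1.61 and -1.35). In dendritic cells Slc6a8 had 36 UMIs in skin (5.34 and 35.0 CPM) and 0 in fascia, at least 56.9-fold lower against a floor of 3 counts over the group, and the keratinocyte product for Slc6a8 is 2.14 and 21.0 CPM. Slc6a16 had 0 UMIs in skin dendritic cells and 112 in fascia, where it stood at 10.1 and 10.3 CPM, at least 7.87-fold higher on the same floor. Slc6a15 and Slc6a2, each with 20 UMIs in skin fibroblasts, had 0 in fascia and were at least 50.6-fold lower, at levels under 4 CPM.

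Slc38a2, which carries alanine, glutamine and other small neutral amino acids, was the most abundant member in keratinocytes (554 and 536 CPM). Blood endothelial Slc38a2 was at 226 and 282 CPM in skin against 145 and 131 in fascia (log2 -1.37, SE 0.18, adjusted p = 0.00658), lost without either fascia library (-1.38 and -1.32). The keratinocyte product for Slc38a2 is 16.4 and 80.4 CPM there. In macrophages it was at 253 and 262 against 113 and 98.2 CPM (log2 -1.55, SE 0.28, adjusted p = 0.00926). In fibroblasts, where it led at 439 and 476 against 242 and 302 CPM, it did not pass (adjusted p = 0.0601). Its relative Slc38a1, a glutamine carrier, was highest, among the 6 classes found in both tissues, in lymphocytes and dendritic cells. In lymphocytes Slc38a1 was at 372 and 230 CPM in skin against 166 and 152 in fascia (log2 -0.97, SE 0.28, adjusted p = 0.0491), lost without either fascia library (-0.99 and -0.88). It exceeded the other classes in lymphocytes by 4.23 (SE 0.24, adjusted p = 7.67e-10) in skin and 4.29 (SE 0.21, adjusted p = 8.09e-11) in fascia on the log2 scale. Blood endothelial Slc38a1 was at 20.4 and 13.9 against 6.98 and 7.23 CPM (log2 -1.78, SE 0.36, adjusted p = 0.0204), lost without skin replicate 1 (-1.28) or either fascia library (-1.70 and -1.85).

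Slc38a4 differed between the dendritic cells of the tissues: 263 UMIs in skin (153 and 42.5 CPM) and 0 in fascia, at least 416-fold lower. Skin dendritic cells were mostly of the Cd207 cluster and those of fascia wholly of the Ccl17 cluster. The part of this in the Slc38a4 difference was not tested. Slc38a4 was higher in skin dendritic cells than in the mean of the other skin classes by 8.82 on the log2 scale (SE 0.74, adjusted p = 1.3e-06). Lymphatic endothelial cells held 26.9 and 23.6 CPM of it (4 and 8 UMIs). In mural cells the glutamine carrier Slc38a3 was at 19.5 and 2.11 CPM in skin against 0.486 and 0.336 in fascia (log2 -4.61, SE 1.07, adjusted p = 0.0252), lost without skin replicate 1 (-2.76) or either fascia library (-5.19 and -4.62) and at -5.90 without skin replicate 2. Slc38a9, a lysosomal arginine sensor upstream of mTORC1, was at 6.95 and 12.4 CPM in skin fibroblasts and 57.9 and 33.4 in fascia (log2 1.92, SE 0.36, adjusted p = 0.0434), lost also without skin replicate 1 (1.71). In the Stmn2 fibroblast cluster Slc38a9 was at 13 CPM in skin replicate 2 and 24.1 and 13.9 in fascia.

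In the Slc43a family, Slc43a1, a carrier of branched-chain amino acids, was higher in fibroblasts than in the mean of the other classes. On the log2 scale Slc43a1 was higher by 5.41 (SE 0.38, adjusted p = 6.01e-09) in skin and 5.17 (SE 0.22, adjusted p = 8.67e-12) in fascia. In skin fibroblasts of replicate 1 its relative Slc43a2 (31.5 CPM) lay above it (16.2). Slc43a2 led in dendritic cells of both tissues, in fascia mural cells and lymphocytes, and in macrophages at 126 and 34.5 CPM in skin against 161 and 111 in fascia (adjusted p = 0.787 between tissues). Slc43a2 was lower in fascia fibroblasts (31.5 and 23.7 against 9.20 and 10.3 CPM, log2 -1.91, SE 0.31, adjusted p = 0.0346), whereas in the Stmn2 cluster it was at 4.32 CPM in skin replicate 2 and 5.86 and 10.9 in fascia. It was higher in fascia blood endothelial cells (1.07 and 2.23 against 15.8 and 9.79 CPM, log2 2.46, SE 0.52, adjusted p = 0.0227) and lymphocytes (2.53 and 9.26 against 26.2 and 31.5 CPM, log2 2.03, SE 0.52, adjusted p = 0.0364). The endothelial call was lost with any library left out (2.16 to 2.90) and the lymphocyte call without either fascia library (2.23 and 1.96), with 3.51 without skin replicate 2. The proton-coupled Slc36a family summed to 14.3 and 20.7 CPM in skin macrophages and 15.9 and 14.5 in fascia macrophages. No single member of it reached 10 CPM in both libraries of a class other than Slc36a4, in skin lymphocytes at 17.7 and 10.8 CPM, from 7 UMIs in each library.

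Summed over the table of class contrasts, 59 members were tested in the joint fit. In fascia, 19 were higher in fibroblasts than in the mean of the other classes (25.2% of all genes), 14 for blood endothelial cells (19.6%), 19 for mural cells (24.8%), 18 for macrophages (22.4%), 17 for dendritic cells (22.1%) and 16 for lymphocytes (24.3%). In skin the counts were 23 for fibroblasts (23.8%), 5 for blood endothelial cells (14.2%), 12 for mural cells (17.5%), 13 for macrophages (10.3%), 18 for dendritic cells (18.7%), 9 for lymphocytes (14.2%), 16 in keratinocytes (21.1%) and 3 in lymphatic endothelial cells (5.38%). Members were called most often in skin fibroblasts (39.0%).

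The tissue change itself was compared between fibroblasts, blood endothelial cells and mural cells with an interaction term. Between blood endothelial cells and fibroblasts, 3 of 51 members differed (3.81% of all genes were called): Slc16a7, Slc43a2 and Slc7a2. Between mural cells and fibroblasts 8 of 51 differed (4.37% of all genes), and between mural and blood endothelial cells 5 of 45 (4.58%). Slc1a5 changed more in mural cells than in fibroblasts by 4.27 (SE 0.34, adjusted p = 0.00541) and than in blood endothelial cells by 3.95 (SE 0.32, adjusted p = 0.00282) on the log2 scale. The fall of Slc2a1 was smaller in mural cells than in fibroblasts by 1.83 (SE 0.29, adjusted p = 0.0278) and than in blood endothelial cells by 2.26 (SE 0.34, adjusted p = 0.0158). For Slc7a5 no difference between these classes was called.

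**Figure D5:**
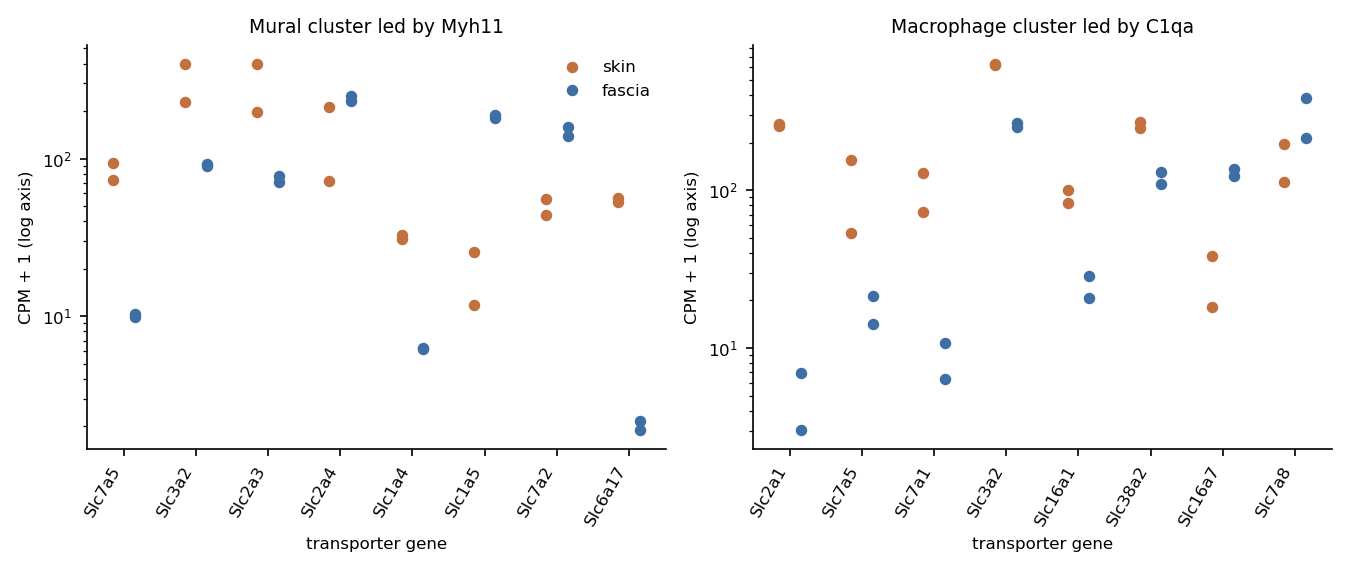
CPM + 1 on a log axis of 8 members per library within the mural cluster led by Myh11 (left; 58 and 242 cells in skin, 401 and 755 in fascia) and the macrophage cluster led by C1qa (right; 44 and 25 cells in skin, 918 and 915 in fascia). In the mural cluster Slc7a5, Slc3a2, Slc2a3, Slc1a4 and Slc6a17 are higher in both skin libraries and Slc1a5 and Slc7a2 in both fascia libraries. In the macrophage cluster Slc2a1, Slc7a5, Slc7a1, Slc3a2, Slc16a1 and Slc38a2 are higher in skin, Slc16a7 and Slc7a8 in fascia.

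Genes that act with these carriers were counted from 5 lists, by the same test in each class. The amino acid response around Atf4 had more calls than any other of the lists in each class except lymphocytes. There the lists of transporter partners and regulators and of amino acid sensing by mTORC1 had as many. In fascia 7 of its 15 tested genes were lower in fibroblasts, 5 of 15 for blood endothelial cells, 7 of 14 for mural cells, 4 of 14 for macrophages, 5 of 13 for dendritic cells and 2 of 14 for lymphocytes. Higher in fascia were 1 for blood endothelial cells, 2 for mural cells and 1 for dendritic cells. The shares of all genes called are those given above for each class. Without skin replicate 2, the lower genes numbered 13, 6, 4, 5, 6 and 2 in the same order of classes. Without fascia replicate 1 or fascia replicate 2 they numbered 0 for fibroblasts (10 and 11 at an unadjusted p under 0.05), macrophages (3 and 3) and dendritic cells (3 and 3), 3 and 2 for blood endothelial cells, 4 and 3 for mural cells and 1 and 1 for lymphocytes. DESeq2 called 11, 5, 7, 6, 6 and 2 lower. The list's median log2 change was -1.86, -1.03, -0.69, -1.31, -0.78 and 0.19.

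Atf4 itself was lower in fascia in each of the 6 classes. It was at 1332 and 1076 CPM in skin blood endothelial cells and 323 and 236 in fascia (log2 -2.63, SE 0.34, adjusted p = 0.006), and in mural cells at 1509 and 1356 against 445 and 380 CPM (log2 -2.21, SE 0.23, adjusted p = 0.00104). Mthfd2, a mitochondrial folate enzyme, was at 35.0 and 18.4 CPM in skin fibroblasts and 1.92 and 4.29 in fascia (log2 -3.61, SE 0.63, adjusted p = 0.0394). Cebpb, a transcription factor that can pair with Atf4, was at 2492 and 3861 CPM in skin mural cells and 445 and 273 in fascia (log2 -3.57, SE 0.36, adjusted p = 0.000891). Ddit4, an inhibitor of mTORC1, went both ways: it was lower in fascia fibroblasts (log2 -1.93) and mural cells (-2.23) and higher in fascia blood endothelial cells and dendritic cells (2.19). The endothelial call of Ddit4 was lost without skin replicate 2 or fascia replicate 1, and the dendritic call without either fascia library.

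The other 4 lists had at most 5 calls in a class. Of the partners and regulators of transporters, 1 of 7 was higher and 1 lower in blood endothelial cells, 2 of 8 higher and 1 lower in dendritic cells, 1 of 8 higher and 1 lower in lymphocytes, and 1 of 8 lower in macrophages. Txnip, which limits glucose uptake, was at 317 and 355 CPM in skin blood endothelial cells and 1579 and 1118 in fascia (log2 1.51, SE 0.28, adjusted p = 0.0153), and was higher in fascia dendritic cells (1.75) and lymphocytes (1.79) too. The endothelial call of Txnip was lost without skin replicate 2 or fascia replicate 1. Of hexose and lactate use, 2 of 12 were higher and 3 lower in blood endothelial cells, 1 of 12 higher and 3 lower in mural cells, 1 of 11 lower in macrophages and 2 of 9 higher in dendritic cells. Hk2, which phosphorylates glucose on entry, was at 65.0 and 49.2 CPM in skin mural cells and 4.58 and 5.47 in fascia (log2 -3.85, SE 0.25, adjusted p = 0.00015).

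Of glutamine, glutamate and glutathione use, 1 of 12 was higher and 1 lower in fibroblasts, 2 of 14 lower in blood endothelial cells, 2 of 12 lower in macrophages, 1 of 11 higher in dendritic cells and 1 of 12 higher in lymphocytes. In macrophages these were Gclc and Gclm, the subunits of the first enzyme of glutathione synthesis. Gclc was at 131 and 131 CPM in skin against 29.7 and 35.5 in fascia (log2 -2.29, SE 0.28, adjusted p = 0.00142). Of amino acid sensing by mTORC1, 2 of 19 were higher in blood endothelial cells, 3 of 18 higher and 2 lower in dendritic cells and 2 of 15 higher in lymphocytes. Depdc5, a brake on mTORC1, was among those higher in blood endothelial cells (log2 1.82) and lymphocytes (1.46). Its endothelial call was lost without skin replicate 1 or fascia replicate 1, and its lymphocyte call without either fascia library and with DESeq2. Of these 4 lists, the calls in fibroblasts, macrophages and dendritic cells were lost without either fascia library, and those in blood endothelial cells without fascia replicate 1.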

How the data were processed

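Cells of 2 rat skin and 2 subcutaneous fascia libraries were profiled with 10x 3′ single-cell RNA-seq. The deposited files hold UMI counts per gene and cell barcode, not normalized by the authors. Cell Ranger 6.0.1, STAR and the builds mRatBN7.2 and GRCh38.p13 are named in the submitters' processing notes, and the matrix header names Cell Ranger 7.0.0. Counting of intronic reads is not given in the sources used here. Of the 30560 genes, 7162 have no symbol.

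Barcodes under 500 genes or above 20% mitochondrial UMIs were dropped. Predicted doublets were removed: 3.08% and 2.68% in fascia as Scrublet called them, and the top-scoring 5.97% and 13.16% in skin, where Scrublet's own threshold had not worked. Cells were clustered with Scanpy 1.11.5 (Python 3.11.15) from 2000 variable genes without the members, 30 principal components, 15 neighbours and Leiden clustering (leidenalg 0.10.2) at resolution 1.0. Of 41 clusters, 9 stayed unnamed, holding 24.0% and 47.1% of skin cells and 0.9% and 3.2% of fascia cells. They include 2 clusters with markers of several classes, kept out by a threshold set after seeing the data (0.13% and 23.62%, 0.05% and 0.13% of cells). Cell type names rest on 142 of 151 listed markers.

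Counts were summed per class and library with at least 20 cells. Fascia was compared with skin in each class, each class with the mean of the others within a tissue, and tissue changes between 3 classes, with edgeR 4.0.16 (R 4.3.3; quasi-likelihood test, TMM scaling, low-count filter, Benjamini-Hochberg adjustment over all genes, threshold 0.05). DESeq2 1.42.0 was an alternative. Tested on simulated data, 4-fold changes were found in 42% of fibroblast, 66% of blood endothelial, 62% of mural, 48% of macrophage, 13% of dendritic and 62% of lymphocyte genes. For 2-fold changes the shares were 4%, 7%, 17%, 9%, 1% and 5% in the same order, so a member that did not pass may still differ. The main fits did not pair libraries by replicate number, and whether the numbers mark pairs is not known. A lead is the family member with the highest mean CPM in a class of a tissue, given at 10 CPM or more. Named were the leads, up to 12 called members per direction and class with at least 10 CPM and no overlap, a core list, and up to 3 called genes of each other list. Values within clusters, immediate early genes and the other genes named were chosen after values were seen. The members and lists were chosen with earlier results of these data known. Bounds against 0 use a floor of 3 counts over the group and cover counting error only.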

Additional observations from a re-analysis of the deposited data

Results flagged for a closer look

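The tissue change (fascia minus skin, log2) differed between classes, by the interaction test, in 16 cases.

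Against fibroblasts, the change in blood endothelial cells was higher by 5.351 for Slc16a7 (SE 0.39, adjusted p = 0.0114), by 4.315 for Slc43a2 (SE 0.59, adjusted p = 0.024) and by 5.189 for Slc7a2 (SE 0.84, adjusted p = 0.0363) in edgeR's test. Against fibroblasts, the change in mural cells was higher by 4.265 for Slc1a5, 6.938 for Slc1a1, 2.56 for Slc6a9, 1.833 for Slc2a1, 4.979 for Slc16a7, 3.416 for Slc43a2 and 5.523 for Slc7a2, and differed by -2.861 for Slc1a4. Against blood endothelial cells, the change in mural cells was higher by 3.946 for Slc1a5, 4.996 for Slc1a1, 2.256 for Slc2a1 and 2.556 for Slc7a1, and differed by -1.606 for Slc3a2. The 3 comparisons share libraries. For Slc1a1 the keratinocyte level times the marker share gives 1.29 and 8.46 CPM in skin fibroblasts, beside measured levels of 8.58 and 8.84. In skin blood endothelial cells that product is 3.47 and 32.9 CPM, beside 13.4 and 81.3.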

How the results depend on the processing

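Counts of called members moved by over 1.5 times in fibroblasts with DESeq2 (21), without the low-count filter (25) and with the replicate block (7), against 13. They moved in mural cells without the filter (19) and without scaling factors (18), against 11, in macrophages without the filter (13), against 8, in dendritic cells without the filter (20) and at Leiden resolution 2.0 (18), against 11, and in lymphocytes with DESeq2 (5) and with the replicate block crossed between tissues (4), against 8. The members higher in skin blood endothelial cells than in the mean of the other classes numbered 10 with doublets kept, against 5. The cause was not tested. The crossed block and the fit without scaling factors were chosen after seeing the data. Deviations of same-numbered skin and fascia libraries had correlations from -0.141 to 0.016 over the 6 classes. With 2 libraries per tissue this cannot show whether the numbers pair the libraries. The replicate block gave 19 calls in blood endothelial cells, 12 for mural cells, 8 for macrophages, 9 for dendritic cells and 6 for lymphocytes.

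With a library left out, called members ranged from 0 to 23 for fibroblasts, 5 to 12 for blood endothelial cells, 7 to 14 for mural cells, 0 to 9 for macrophages, 0 to 23 for dendritic cells and 1 to 9 for lymphocytes. Members higher in a class than in the others ranged, in fascia, from 12 to 21 for fibroblasts, 7 to 17 for blood endothelial cells, 11 to 23 for mural cells, 12 to 23 for macrophages, 10 to 22 for dendritic cells and 6 to 19 for lymphocytes. In skin they ranged from 18 to 21 for fibroblasts, 4 to 6 for blood endothelial cells, 7 to 13 for mural cells, 2 to 12 for macrophages, 10 to 19 for dendritic cells, 6 to 6 for lymphocytes, 12 to 16 in keratinocytes and 0 to 3 in lymphatic endothelial cells. Where this left 1 library in a tissue, it was assumed to vary like the others. Slc7a11 in Macrophage or monocyte cells, log2 change, ran from -8.77 to 7.09 with a library left out, and Slc43a2 in Dendritic cells, log2 change, from -1.41 to 1.719. Both turned positive without skin replicate 1, and neither was then called. Of 2051 values of named members under alternatives, 1790 kept direction and side of the threshold, 175 lost the call and 84 gained it. Leads were the same in 92 to 105 of 106. With resolution 0.5 or doublets kept, skin replicate 2 held too few dendritic cells to test.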

Other observations

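Cells found in 1 library or outside the classes described above had their own leading carriers, given as values without a test. Mast-like cells of skin replicate 1 (68 cells) held 508 CPM of Slc16a10 and 180 of Slc2a3. Melanocyte-like cells of skin replicate 2 (121 cells) held 956 CPM of Slc3a2 and 209 of Slc7a5, with keratinocyte markers at 36.69% of their keratinocyte level. A neutrophil-like cluster of fascia, led by S100a9, Fcnb and Rnase6, held 38 and 270 cells, of which the marker minimum kept 63 in fascia replicate 2. In the whole cluster Slc38a1 was at 298 and 229 CPM and Slc2a1 at 176 and 114. An unnamed cluster of fascia (57 and 162 cells) held 337 and 354 CPM of Slc1a5.

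Within skin keratinocytes the carriers differed between clusters. Slc6a6 was at 387 and 580 CPM in one cluster, Slc1a1 at 263 and 338 in another, and Slc7a11 at 111 and 110 in a further cluster.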
